A study of Rattus norvegicus with 49 samples.

Results

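Transcript levels of 4 genes of the parathyroid gland, Pth, Casr, Gcm2 and Gata3, were measured in thyroid samples of rats exposed to 131I and of untreated rats. The members were the genes whose RefSeq accession stood beside a probe of the array, which gave 1 probe for each of the 4 genes, of 30367 probes and 15154 named genes in all. The 49 one-colour Agilent arrays each held total RNA of the thyroid of 1 male Sprague Dawley rat. Rats injected at 5 weeks of age, here called young, had received 0.5, 5, 50 or 500 kBq and were killed after 9 months, or had received 50 kBq and were killed after 3 or 6 months. Rats injected at 17 weeks of age, here called adult, had received 50 kBq and were killed after 3, 6 or 9 months. Untreated controls were killed at 4, 7, 10 or 13 months of age. There were 13 groups of 4 arrays, but the 5 kBq group, the 7 month controls and the 13 month controls had 3 arrays here. The samples were whole pieces of thyroid tissue, so fewer cells of a type and less RNA per cell cannot be told apart.

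The parathyroid glands of the rat lie on or in the thyroid lobes, and their chief cells secrete parathyroid hormone, which raises calcium in blood. Chief cells sense calcium through the calcium-sensing receptor, which lowers secretion of the hormone when calcium is high. The transcription factors Gcm2 and Gata3 are needed for the formation and survival of the gland and act upstream of the genes for the hormone and the receptor. Thyroid C cells, which secrete calcitonin, also express the calcium-sensing receptor, and Gata3 is also a factor of T lymphocytes.

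In the RefSeq annotation of GRCr8, Pth lies at chr1:176942901-176946034, Casr at chr11:77738398-77813639, Gcm2 at chr17:23858379-23867495 and Gata3 at chr17:73544234-73575670. The array itself was designed on an earlier build, and the coordinates given here are those of RefSeq only. The promoters of Pth, Casr and Gata3 are shown because Gcm2 and Gata3 code for factors that bind DNA and because these transcripts varied together across rats, as described below. Each line gives the 250 bases before the start site, 5′ to 3′ on the strand of the gene, from the windows and start sites of RefSeq on GRCr8, which for Casr and Gata3 lie inside the gene's span and not at its outer end, with matches to GATA (TATC on the other strand) and to GCGGGT in capitals.
Pth promoter, chr1:176946035-176946284, minus strand: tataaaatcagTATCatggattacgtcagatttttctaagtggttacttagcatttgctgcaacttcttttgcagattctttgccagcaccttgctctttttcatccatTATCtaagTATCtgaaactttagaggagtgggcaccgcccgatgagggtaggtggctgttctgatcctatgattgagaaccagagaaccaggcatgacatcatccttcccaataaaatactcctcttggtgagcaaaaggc
Casr promoter, chr11:77740364-77740613, plus strand: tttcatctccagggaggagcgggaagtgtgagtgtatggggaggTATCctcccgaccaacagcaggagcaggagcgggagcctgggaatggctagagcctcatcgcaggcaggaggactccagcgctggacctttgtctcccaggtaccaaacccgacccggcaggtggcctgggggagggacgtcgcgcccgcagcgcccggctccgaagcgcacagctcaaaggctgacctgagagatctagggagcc
Gata3 promoter, chr17:73553298-73553547, plus strand: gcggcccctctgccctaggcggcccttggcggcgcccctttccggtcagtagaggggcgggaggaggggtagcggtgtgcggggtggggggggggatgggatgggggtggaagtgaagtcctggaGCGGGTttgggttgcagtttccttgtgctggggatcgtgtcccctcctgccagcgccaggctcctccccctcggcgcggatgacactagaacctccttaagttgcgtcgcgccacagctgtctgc
The windows were searched on both strands, up to 50 bases past the start site, for GATA, the core of the sites bound by GATA factors, and for GCGGGT, a core of the sites bound by Gcm factors, and no match overlapped another. The Pth window held GATA at 3 positions, the Casr window at 1 and the Gata3 window at 1, the last of them past the start site and outside the stretch shown. GATA was present in 60.5% of all 33469 promoter windows of the same length. GCGGGT, present in 11.5% of windows, was found once, in the Gata3 window. A match is a description of the letters and not of a bound site.

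Levels are given as log2 signal minus the array's own 75th percentile, so that 0 is that percentile and 1 unit is a 2-fold difference. Outside 3 arrays, between 70.1% and 82.5% of spots were well above background and the 75th percentile of the signal was between 1333 and 4172. Replicate 2 of the 50 kBq young group at 3 months was dim, with a 75th percentile of 61.0 and 43.1% of spots well above background, and was alone on its slide. Replicate 3 of the same group and replicate 2 of the 7 month controls had a thyroglobulin (Tg) signal of 0.14 and -0.69, against 6.41 to 10.94 on all other arrays, and their calcitonin (Calca) signals were -7.20 and -4.36. These 2 arrays, which go against the label of thyroid tissue, and the dim array are the 3 arrays that stand apart. Results that rest on them are given with and without them. Of the follicular markers, Tg, Pax8, Nkx2-1 and Foxe1 were well above background on each of the 46 other arrays, but Slc26a4 on 4 of all 49. Foxe1 was also well above background on the 2 arrays with low Tg, at 1.10 or higher.

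Pth, the gene for parathyroid hormone, was bright and nearly level across most rats. It was well above background on 48 of 49 arrays, and 41 arrays had a signal between 5 and 7. A gap of 7.28 log2 units with no array in it separated 45 arrays, with signals from 4.40 to 8.22 and a median of 6.37, from 4 arrays with signals of -2.87 and below. The signals in the 10 month controls were 6.58, 6.42, 6.75 and 5.03. In young rats after 9 months, the 0.5 kBq signals were 6.35, 6.28, 6.43 and 6.66, and the 5 kBq signals were 6.01, 5.98 and 6.83. The 50 kBq signals were 6.85, 6.19, 5.48 and 6.14, and the 500 kBq signals were 6.40, 6.75, 6.17 and 5.82. All these ranges overlapped. The 4 arrays below the gap were 1 array in each of 4 groups. Replicate 1 of the 50 kBq young group at 6 months had a signal of -4.60, beside 5.46, 5.50 and 6.84. Replicate 2 of the 50 kBq adult group at 9 months had a signal of -7.77, which was not well above background, beside 6.49, 6.43 and 6.49. The others were the arrays with low Tg, at -2.94 in the 50 kBq young group at 3 months and at -2.87 in the 7 month controls. The median intensity of the Pth spots, averaged for each array, reached at most 53.9% of the scanner's saturation value, and no spot of any probe was saturated.

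Casr, the gene for the calcium-sensing receptor, varied more evenly from rat to rat. It was well above background on 48 of 49 arrays, and its signals ran from -1.14 to 5.70 with a median of 3.15 over the 46 arrays other than those that stand apart. The signals in the 10 month controls were 3.73, 4.01, 4.22 and 1.97. The 0.5 kBq rats had signals of 2.03, 1.37, 4.89 and 1.17, and the 5 kBq rats of 3.50, 3.56 and 2.66. After 50 kBq they were 2.38, 5.42, 0.53 and 5.42, and after 500 kBq 4.52, 4.33, 1.24 and 4.61. Each exposed group overlapped the controls, and the 3 lowest of these arrays lay in 3 different exposed groups. On the 2 arrays with low Tg, Casr was at -7.49, not well above background, and -6.03. On the other 2 arrays without a high Pth signal, Casr was at 2.45 in the adult rat at 9 months and at -0.34 in the young rat at 6 months.

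Gcm2, the factor that defines the parathyroid lineage, was well above background on 42 of 49 arrays. Its signals ran over the 46 arrays from -9.50, on an array where it was not well above background, to 1.13. In the 10 month controls they were -1.42, -4.43, -1.72 and -7.49, the last not well above background. The 0.5 kBq rats had signals of -2.80, -3.87, 0.01 and -4.12, and the 5 kBq rats of -2.78, -1.57 and -3.12. After 50 kBq they were -3.11, 0.57, -7.61 and 1.01, the third not well above background, and after 500 kBq -0.34, -0.42, -5.88 and -0.25. The groups overlapped, and at 500 kBq a single array lay far below 3 arrays that were close together. In the 50 kBq young group at 3 months the signals were -6.53, -3.12, -8.12 and -8.83, and 3 of the 4 were not well above background, so -3.12 on the dim array is a background signal. In the 4 month controls they were -0.70, 0.22, -4.66 and -4.43.

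Gata3, a partner factor in the parathyroid lineage, was well above background on 44 of 49 arrays, with signals from -8.47 to -0.37. Its signals in the 10 month controls were -2.94, -5.66, -2.74 and -7.27, of which the last was not well above background. At 500 kBq they were -1.66, -1.76, -6.10 and -1.93, and at 50 kBq after 9 months in young rats they were -4.55, -0.68, -6.72 and -0.56. The same arrays were low for Gata3 as for Gcm2 in these 3 groups. In the 50 kBq young group at 6 months the signals were -6.83, -6.40, -6.66 and -4.12, against -0.37, -8.47 and -3.97 in the 7 month controls, and the group lay inside the range of these controls. The -8.47 is from the array with low Tg and was not well above background, and without it all 4 exposed arrays lay below both controls. The nearest values were then -4.12 and -3.97. Casr separated too without that array, with exposed signals of -0.34, -0.35, 2.24 and 1.97 against 4.98 and 3.33. Gcm2 and Pth still overlapped, with highest exposed signals of -2.23 and 6.84 against lowest controls of -2.45 and 6.37. The share of all probes whose groups separate without that array was not computed. With all 3 controls, 7.82% of all probes had groups that did not overlap.

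**Figure D1:**
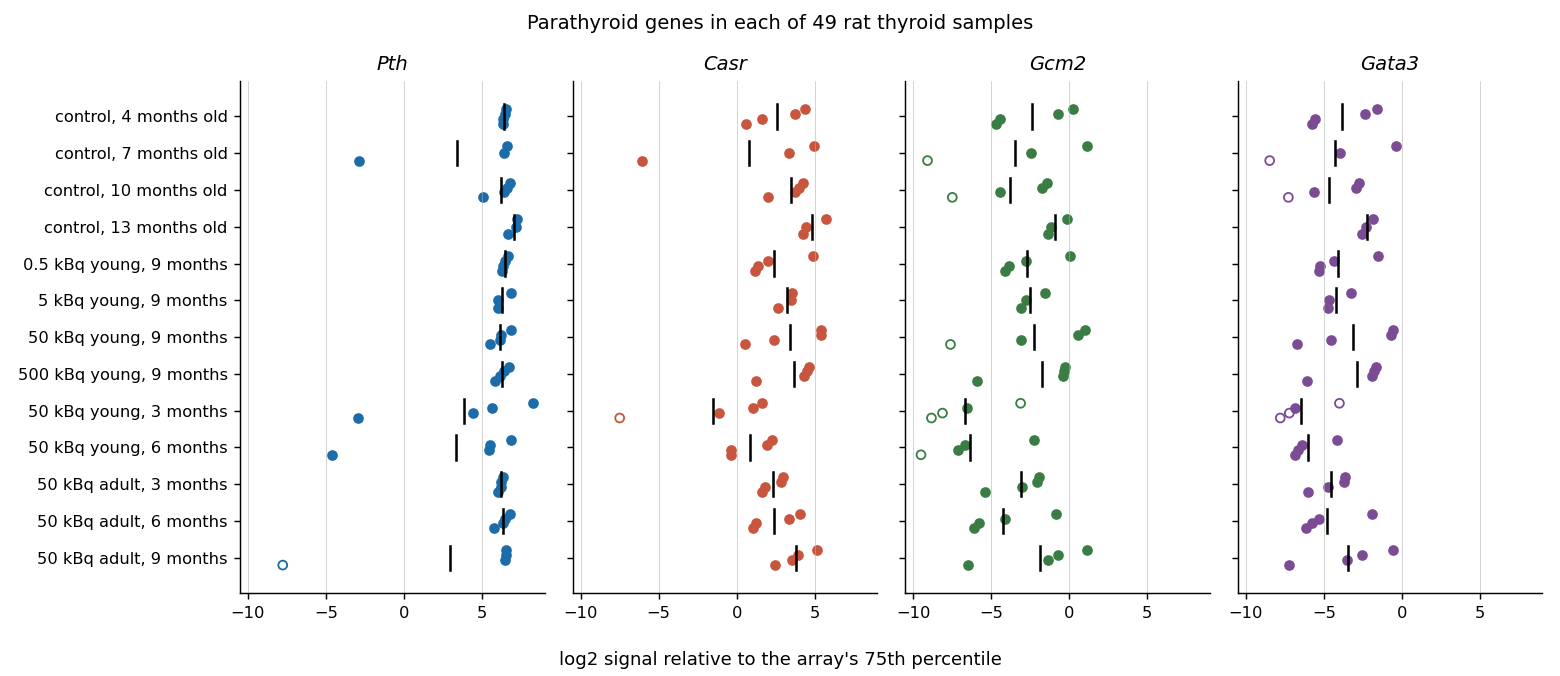
Log2 signal, scaled to each array's 75th percentile (x axis), for Pth, Casr, Gcm2 and Gata3 in each of the 49 arrays, by group (y axis). Points are single rats, open points were not well above background, and black bars are group means. Pth lay between 4.40 and 8.22 on 45 arrays and at -2.87 or below on 4, while Gcm2 and Gata3 were spread over several units in most groups.

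Rats of the same group differed far more than repeated spots of the same array. The 2 spots of a probe differed by a median of 0.11 log2 units for Pth, 0.04 for Casr, 0.09 for Gcm2 and 0.21 for Gata3. The SD between rats of a group, pooled over the 13 groups, was 3.20 for Pth, 2.29 for Casr, 2.81 for Gcm2 and 2.14 for Gata3, against a median of 0.53 over all tested probes. Without the 3 arrays that stand apart it was 2.71, 1.46, 2.59 and 1.99, against a median of 0.39, and 97.5% to 99.6% of probes had a lower SD than these 4. A plain SD across rats, not pooled within groups, was also taken over the 44 of these arrays with a high Pth signal. It was 0.53 for Pth, 1.67 for Casr, 2.66 for Gcm2 and 2.06 for Gata3. These arrays were chosen by Pth itself, which narrows the spread of Pth. When groups were ordered by their means, the ranges of all 12 pairs of neighbours overlapped for each of the 4 genes. The step between neighbours was smaller than the larger of their SDs for 11 of 12 pairs for Pth and Casr and for all 12 pairs for Gcm2 and Gata3. The 13 month controls had the highest mean for each of the 4 genes, at 7.00 ± 0.30 for Pth, 4.79 ± 0.79 for Casr, -0.90 ± 0.68 for Gcm2 and -2.22 ± 0.35 for Gata3 (SD, n = 3). The 50 kBq young group at 3 months had the lowest mean for Casr, Gcm2 and Gata3, and the 50 kBq adult group at 9 months for Pth.

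Gcm2, Gata3 and Casr rose and fell together from rat to rat. Gcm2 and Gata3 correlated across the 49 arrays with r = 0.97 and rho = 0.99 (permutation p = 1e-05 for each, adjusted 2e-05 over 6 pairs, the smallest that 100000 permutations can give). The value was 0.98 without the 2 arrays farthest from the Gcm2 median, 0.97 on deviations from group means, and 0.97 over the 46 arrays. It was between 0.94 and 0.99 within each of the 6 slides with at least 6 arrays, and between 0.97 and 0.98 within the 3 scan dates. Gcm2 was well above background on 42 of the 49 arrays and Gata3 on 44, and their signals on the other arrays entered the correlations too. Because the 2 arrays with low Tg lay far from all others for Casr, its relations were computed over the other 47 arrays. Casr correlated with Gcm2 at r = 0.86 and rho = 0.89, and with Gata3 at r = 0.86 and rho = 0.88 (permutation p = 1e-05, adjusted 2e-05). These were 0.86 and 0.86 without the 2 arrays farthest from the Casr median, and 0.80 and 0.80 on deviations from group means. Over the 46 arrays they were 0.86 and 0.87, and at least 0.85 within each scan date and 0.75 within each of the 6 slides. On the 9 arrays of the 46 with a Gcm2 signal below -6, Casr lay between -1.14 and 2.45.

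Pth followed the other 3 genes less closely, and on the 37 arrays of the 46 with a Gcm2 signal above -6 it lay between 5.77 and 7.21. Over the 45 arrays above the gap, Pth correlated with Gcm2 at r = 0.54 and rho = 0.44 (permutation p = 8e-05 and 0.00302, adjusted 0.00012 and 0.00362). It correlated with Gata3 at r = 0.48 and rho = 0.49 (permutation p = 0.00056 and 0.00091), and with Casr at r = 0.35 and rho = 0.37 (permutation p = 0.019 and 0.0133). Without the 2 arrays farthest from the Pth median, r was 0.56 with Gcm2, 0.49 with Gata3 and 0.45 with Casr. Over the 44 arrays left without the dim array, r was 0.63 with Gcm2, 0.55 with Gata3 and 0.47 with Casr. Within the scan dates of these 44 arrays, r ranged from 0.30 to 0.75 for Gcm2, from 0.33 to 0.67 for Gata3 and from 0.43 to 0.52 for Casr. Under quantile normalization r over the 45 arrays was higher, at 0.80 with Gcm2, 0.69 with Gata3 and 0.64 with Casr. The points of these relations share arrays, and each array was scaled by its own percentile.

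**Figure D2:**
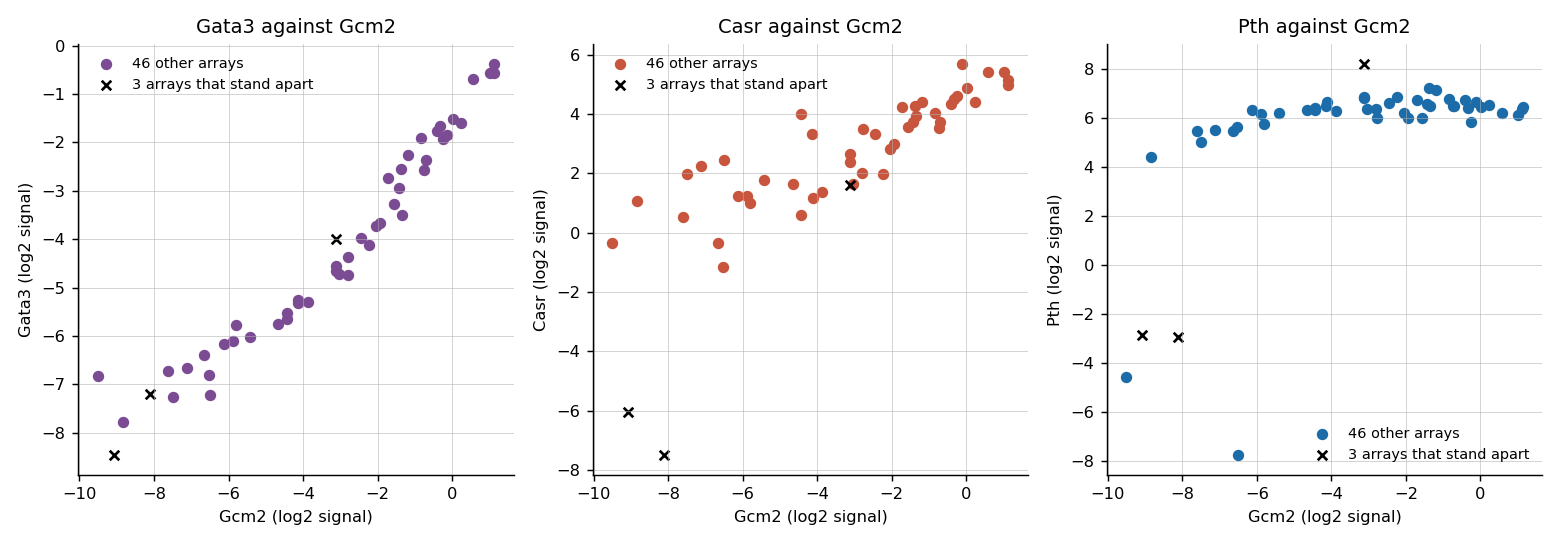
Log2 signals of Gata3, Casr and Pth (y axes) against that of Gcm2 (x axis), 1 point per rat, with crosses for the 3 arrays that stand apart. Gata3 followed Gcm2 over the whole range (r = 0.97), Casr followed it with more scatter at low Gcm2, and Pth lay between 5.77 and 7.21 on the 37 arrays, crosses aside, with Gcm2 above -6.

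Levels of markers of other cell types were set beside these differences, and their part in the results was not tested. Follicular thyrocyte markers, 11 of 11 with a probe, had a mean log2 signal per array between -0.29 and 2.13 on the 46 arrays. On the 2 arrays with low Tg the mean was -5.28 and -4.34. C cell markers, 8 of 9 with a probe, ranged from -4.59 to 2.46 and were at -6.18 and -5.71 on these 2 arrays. In the rats with low Pth but ordinary Tg, at 7.19 and 7.39, Calca was at 5.81 and 7.53, values inside the ranges of the other arrays. In the same 2 rats chromogranin A (Chga), a protein of hormone granules, was at -2.32 and 0.38, against a median of 3.31 over the 46 arrays. Kl was not well above background in either, and Gcm2 was at -9.50, not well above background, and at -6.49, well above it. Casr was well above background in both rats, at -0.34 and 2.45, against a median of 3.15 over the 46 arrays. T lymphocyte markers, which share Gata3 as a factor, had means between -6.73 and -4.72 on the 46 arrays and a median correlation with Gcm2 of 0.11, against 0.05 over all genes. Skeletal muscle markers, 5 of 5 with a probe, had means between -3.14 and 6.37 on the 46 arrays and 7.13 and 6.84 on the arrays with low Tg, and their median r was -0.40 with Gcm2 and -0.41 with Casr. In young rats 3 months after 50 kBq the muscle mean was 6.08 to 7.13, against 4.36 to 6.05 in the 4 month controls. Cartilage markers, 4 of 5 with a probe, were at -3.16 to -0.34 there against -6.54 to -2.74, and squamous epithelium markers, 7 of 8, at -5.02 to -1.09 against -5.23 to 2.87. Without the arrays that stand apart, these exposed means were 6.08 and 6.37 for muscle and -1.36 and -2.66 for cartilage. Those for squamous epithelium were -4.83 and -5.02.

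**Figure D3:**
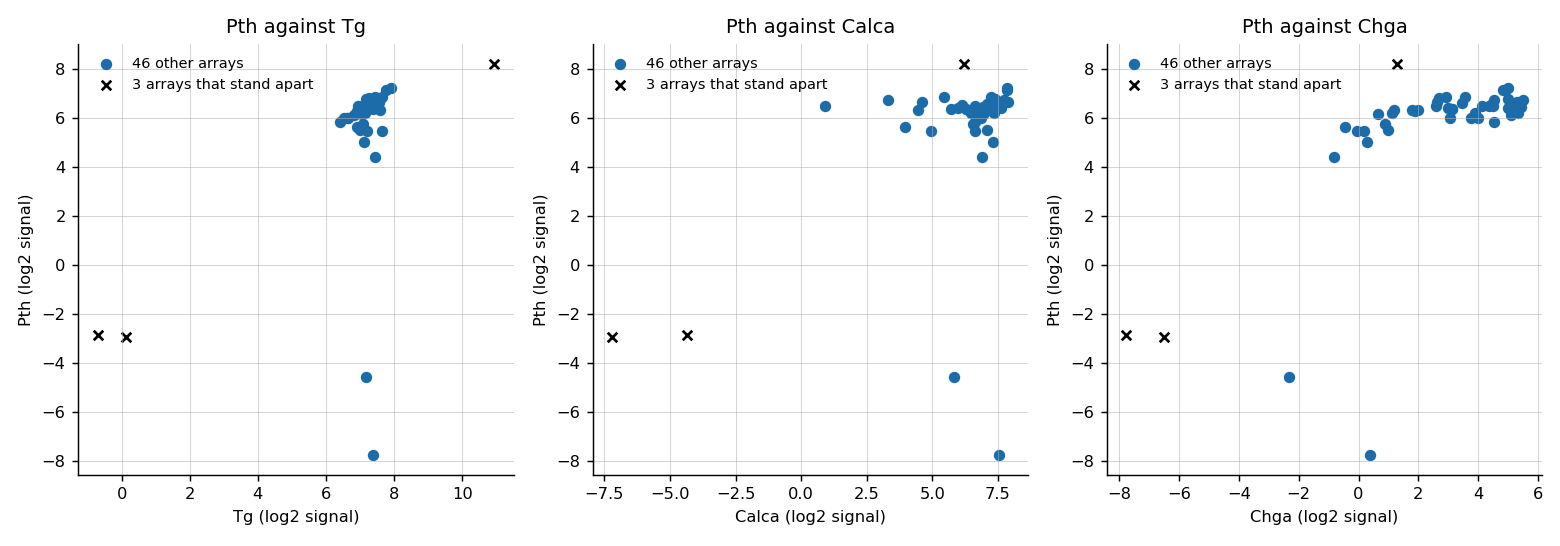
Log2 signal of Pth (y axes) against Tg, Calca and Chga (x axes), 1 point per rat, with crosses for the 3 arrays that stand apart. Of the 4 rats with low Pth, 2 had low Tg and low Calca, while the others, at -4.60 and -7.77, had Tg signals of 7.19 and 7.39.

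The first question was whether the members changed with the activity of 131I, 9 months after injection of young rats. Calls were made in a limma fit of all 49 arrays, where the Benjamini-Hochberg adjusted p had to be under 0.01 and the change over 1.5-fold in either direction. Of the 56 tests of a member in the 14 comparisons of this and the following paragraphs, 0 passed and 3 had an unadjusted p under 0.05, all of them 3 months after 50 kBq. These were Casr and Gcm2 in young rats and Casr in the young effect minus the adult effect. Of all 25284 tested probes, 9591 and 7491 had an unadjusted limma p under 0.05 in these comparisons, in that order. None of the 4 members was called at 0.5 kBq, where 0% of 25284 tested probes were called (235 had an unadjusted p under 0.05, no member among them). The same count of 0 members was found after 5 kBq, where 0.0119% of probes were called, after 50 kBq, also with 0.0119%, and after 500 kBq, with 0%. Gcm2 was higher on average than in the controls at each activity, by 1.07 ± 1.93, 1.28 ± 2.09, 1.48 ± 1.93 and 2.04 ± 1.93 (log2 difference ± SE) from the lowest to the highest activity. Gata3 differed by 0.54 ± 1.47, 0.43 ± 1.59, 1.52 ± 1.47 and 1.79 ± 1.47. These values share the 4 control arrays, of which replicate 4 was the lowest for all 4 genes, and each confidence interval included 0. Without that control the Gcm2 differences were -0.17, 0.03, 0.24 and 0.80 and those of Gata3 -0.33, -0.44, 0.65 and 0.92, and with single arrays left out in turn the Gcm2 differences reached 1.85, 2.06, 3.25 and 3.43 at most. With slide as a block the Gcm2 difference at 500 kBq was 0.62 and that of Gata3 0.95, and with scan date as a block they were 1.76 and 1.79. Within scan dates the Gcm2 difference was 2.23 and -2.41 at 0.5 kBq, 2.88 and -1.40 at 5 kBq and 3.40 and -1.80 at 50 kBq on the first and the third date, the latter against a single control, and 1.30 at 500 kBq on the third. At 500 kBq the 95% confidence interval of the Gcm2 difference ran from -1.87 to 5.95. The Pth differences were between -0.03 and 0.23, with intervals that reached from -4.72 to 4.88, a width set by the spread in all 13 groups. The slope on the activity, fitted over the 15 exposed arrays alone, called no member and 0% of 23116 probes. Per 10-fold activity it was -0.05 ± 0.09 for Pth, 0.42 ± 0.35 for Casr, 0.31 ± 0.53 for Gcm2 and 0.47 ± 0.42 for Gata3, with adjusted p of 1.00 for each.

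The largest negative differences of Casr and Gcm2 were found in young rats 3 months after 50 kBq, and they did not pass the test. Casr was 4.08 ± 1.58 log2 units below the 4 month controls (limma adjusted p = 0.0618), Gcm2 differed by -4.26 ± 1.93 (adjusted p = 0.103), Gata3 by -2.64 ± 1.47 (adjusted p = 0.180) and Pth by -2.59 ± 2.20 (adjusted p = 0.381). No member was called, against 0.0119% of probes, 3 in number and all higher. Without the 3 arrays that stand apart, which left 2 exposed arrays, the differences were -2.62, -5.29, -3.49 and -1.40, with adjusted p between 0.474 and 0.815. Within the first scan date, which held 2 exposed and 2 control arrays, the differences were -7.27 for Casr and -8.23 for Gcm2, and within the second, with the same numbers, they were -0.88 and -0.28. Each date held 1 exposed array that stands apart, and without it, against 1 exposed array, the differences were -2.99 for Casr and -8.59 for Gcm2 on the first date and -2.26 and -1.99 on the second. The remaining Gcm2 signal on the first date was not well above background. In young rats 6 months after 50 kBq, no member and 0% of probes were called. Gcm2 differed from the 7 month controls by -2.90 ± 2.09 and Gata3 by -1.74 ± 1.59, while Casr differed by 0.12 ± 1.70 and Pth by -0.07 ± 2.37. Replicate 2 of these controls is 1 of the 3 arrays that stand apart. Without these 3 arrays the Casr difference became -3.28, that of Pth -3.19, that of Gcm2 -5.71 and that of Gata3 -3.83, with limma adjusted p between 0.357 and 0.624. With single arrays left out in turn, the smallest limma adjusted p of each member was between 0.625 and 0.855. With limma's array weights, 3 members were called in this comparison, Casr at -3.86, Gcm2 at -7.71 and Gata3 at -5.80. The share of all probes called with these weights was not counted, so these calls have no background beside them.

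In adult rats no member was called after 3 months, with 0% of probes called, after 6 months, with 0%, or after 9 months, with 0.558%. After 3 months the differences from the 7 month controls were 2.83 ± 2.37 for Pth, 1.55 ± 1.70 for Casr, 0.36 ± 2.09 for Gcm2 and -0.27 ± 1.59 for Gata3. Without the 3 arrays that stand apart they were -0.29, -1.85, -2.45 and -2.36, and with array weights Casr (-2.44), Gcm2 (-3.81) and Gata3 (-3.84) were called lower. How many of all probes were called with array weights was not counted. After 6 months all 4 differences were between -1.08 and 0.14. After 9 months Pth was at 2.91 ± 7.12 (SD, n = 4) in exposed rats and 7.00 ± 0.30 (SD, n = 3) in the 13 month controls, a difference of -4.09 ± 2.37 (adjusted p = 0.322) to which replicate 2 contributed most, since the other 3 exposed arrays lay between 6.43 and 6.49. Within the scan date that held arrays of both groups, 2 exposed and 2 control and not replicate 2, the difference was -0.47. All 4 exposed arrays lay below all 3 controls, the only 1 of the 4 members for which this was so, and the 2 groups did not overlap for 26.1% of all probes. The two-sided exact permutation p was 0.0571, the smallest that 4 arrays against 3 can give, and 0.971 after adjustment over 36 tests. This separation was of scaled signals. The 75th percentile of the signal was 1333 to 1441 in these controls and 2426 to 3580 in the exposed arrays. Before scaling, Pth was at 208949, 188949 and 144982 in the controls. It was at 241454, 309472 and 218465 in the 3 exposed arrays other than replicate 2. The part of the scaling was not tested. Of the 36 exact tests of a member in an exposed group, 16 compared 4 arrays with 3 and could not reach 0.05. Of the 20 tests of 4 arrays against 4, whose smallest possible p is 0.0286, 0 had an unadjusted exact p under 0.05, and the smallest was 0.0857.

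**Figure D4:**
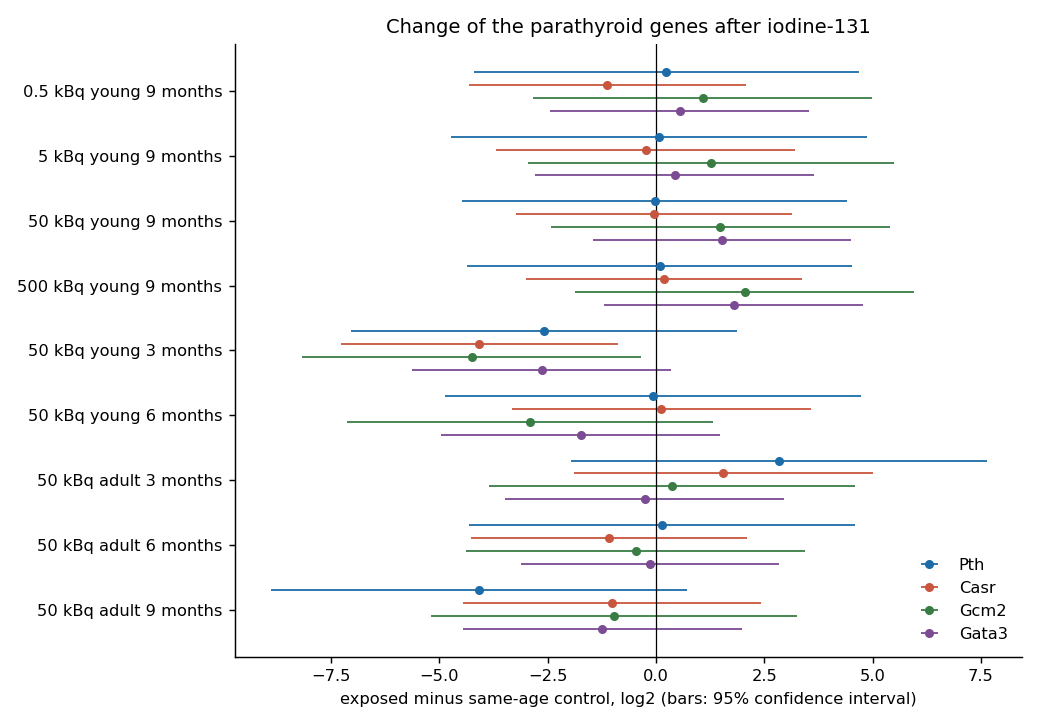
Difference of each member between exposed rats and controls of the same age on the log2 scale (x axis), for the 9 exposed groups (y axis). Points are estimates from the fit of 49 arrays and bars are 95% confidence intervals, which were between about 6 and 10 units wide and included 0 except for Casr and Gcm2 in young rats at 3 months.

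The effect of 50 kBq in young rats was compared with that in adult rats as an interaction, and no member and 0% of probes were called at 3, 6 or 9 months. At 3 months the young effect minus the adult effect was -5.63 ± 2.32 for Casr (adjusted p = 0.109), -5.42 ± 3.23 for Pth, -4.62 ± 2.84 for Gcm2 and -2.38 ± 2.17 for Gata3. Without the 3 arrays that stand apart these values were -0.78, -1.11, -2.84 and -1.13. At 6 months the values were 1.20 for Casr and between -2.44 and -0.21 for the others, and with array weights Gcm2 (-7.04) and Gata3 (-5.59) were called. The share of all probes called with array weights was not counted. At 9 months the values of the 4 members were between 0.97 and 4.06. In untreated rats, the slope over the 9 months between 4 and 13 months of age called no member, against 3.2% of probes. The change over that span was 2.80 ± 1.62 for Casr, 1.38 ± 2.25 for Pth, 1.26 ± 1.98 for Gcm2 and 1.31 ± 1.51 for Gata3, and without the 3 arrays that stand apart it was 1.78, 0.44, 0.41 and 0.68.

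Other genes of the parathyroid were examined in 5 lists, and no gene of any list was called in an exposed group. Of the lineage transcription factors, 7 of 11 had a probe and all 7 were tested. Pax9, a factor of the pharyngeal pouches, correlated with Gcm2 over the 46 arrays at r = 0.76, while the pouch factors Tbx1 and Six4 had r of -0.35 and -0.25. An r above 0.5 with Gcm2 was found for 5.04% of all genes. Of 13 genes of calcium receptor signalling, all tested, Casr (0.86) and Plcb1, a phospholipase downstream of Gq proteins, at 0.73 were above 0.5, while the G protein genes Gnaq, Gna11 and Gnai2 were between 0.12 and 0.32. Of the hormone family and receptors, 5 of 6 were tested and none was above 0.5. Pthlh, the gene for parathyroid hormone-related protein, had r = -0.30. Of 9 genes of prohormone cleavage and granules, Chga (0.98) and Scg5 (0.62), which helps convertases to mature, were above 0.5, and Furin, a convertase of proPTH, was at 0.27. Of the regulators by vitamin D and phosphate, 9 of 11 were tested. Kl, the coreceptor for the phosphate hormone Fgf23, was at 0.98 and Vdr, the vitamin D receptor, at 0.92, and no others of this list were above 0.5.

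Within these lists the called changes were 2, both in untreated rats with age, a comparison in which 3.2% of all probes were called. Tbx1 fell by 2.78 ± 0.58 log2 units over 9 months (limma adjusted p = 0.00383), with means of 3.01, 2.52, 2.45 and -0.06 at 4, 7, 10 and 13 months. In the 13 month controls the mean of the 5 skeletal muscle markers was also low, at 0.88, 0.92 and 2.73, against 4.08 to 6.84 in the other controls, and its part in these changes was not tested. Furin rose by 0.96 ± 0.18 (adjusted p = 0.00169), with means of 0.76, 1.10, 0.92 and 1.88 at these ages. Both remained called without the 3 arrays that stand apart, at -2.60 and 0.97, where 2915 of 25156 probes were called. The list medians in the exposed groups lay between -1.31 and 0.84, against -0.14 to 0.30 for all probes. The lowest was that of prohormone cleavage and granules at 0.5 kBq. The median r of the 8 C cell genes over the 46 arrays was 0.48 with Casr and 0.17 with Gcm2, where the medians over all genes were 0.06 and 0.05. For Calca the values were 0.33 and 0.04, and no C cell gene exceeded 0.5 with either.

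The genes whose pattern was most like that of a member were ranked by r over the 49 arrays among 13186 genes. For Gcm2 they were Adgrg2 (0.98), an adhesion G protein-coupled receptor, Pcyt1b (0.98), an enzyme of phosphatidylcholine synthesis, Kl (0.98), Alox12e (0.97) and Rhcg (0.97), an ammonia transporter. For Gata3 they were Pcyt1b (0.98), Piwil2 (0.98), Kl (0.98), Sostdc1 (0.98), an antagonist of bone morphogenetic proteins, and Adgrg2 (0.98). Casr was most like Slc35g2 (0.95), Chga (0.94), Scg5 (0.94), Efhc2 (0.94) and Rell2 (0.92). The r of these 5 genes with Casr was between 0.89 and 0.91 over the 46 arrays, but 0 of them remained among the first 5 there, where Lrrc73, Fbxo2, Rab36, Chrna10 and Mat1a led. Pth had no gene with r above 0.8, against 77 genes for Gcm2, 109 for Gata3 and 90 for Casr. Its closest genes were Cryba2 (0.76), Alox12e (0.69), Chga (0.68), Rhcg (0.65) and A4galt (0.61). These r values pool arrays on both sides of the gap in Pth signals, so they lean on the few arrays below it. Of the first 5 genes, 3 remained among the first 5 over the 46 arrays for Pth, 4 for Gcm2 and 4 for Gata3. When genes were ranked by Spearman's rho, 1 of the 5 remained for Pth, 1 for Casr, 3 for Gcm2 and 3 for Gata3.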

How the data were processed

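The authors hybridised Cy3-labelled RNA of 49 thyroids and deposited one Agilent Feature Extraction 10.7.3.1 file per array, in which the signal of a spot is an intensity after subtraction of its background, with no scaling across arrays. The deposited files also mark outlier, saturated and well above background spots as 0 or 1, other values used here as filters. A deposited table of the authors' fold changes was not used. The authors' software was Nexus Expression 3.0 per the methods, and Partek per the submitters' processing notes.

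Control and outlier spots were left out, log2 signals were reduced by the 75th percentile of the array, and the spots of a probe were averaged. Accessions named 17998 of 30367 probes, in 15154 genes. Members and lists were chosen with earlier results of these data known. Probes well above background on at least 3 arrays entered limma 3.58.1 (R 4.3.3, data.table, version 1.17.8, jsonlite 2.0.0), with 13 group means, Benjamini-Hochberg adjustment and calls at an adjusted p under 0.01 and a fold above 1.5. The activity slope was fitted on log10 of the activity in kBq. Relations and permutation tests (two-sided) used scipy 1.17.1, numpy 2.4.6, pandas 2.3.3 and Python 3.11.15, with matplotlib 3.10.9 for plots. In a gene with several probes, the probe with the highest mean was used, and members have 1 probe each. Named genes are the members, the genes of the fixed lists and the 5 most like each member, and some genes of the lists are not reported here. The fit was tested on simulated data. The number of arrays limits precision. Each array is 1 rat, so p-values measure the spread between rats.

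Alternatives were quantile normalization, normexp (offset 50) from the spots' median signals, no filter or a stricter filter, a block for slide, for scan date or for replicate number, array weights, fewer groups in the fit, an adjusted p under 0.05 and each array left out. Leaving out the 3 arrays that stand apart was chosen after seeing the data.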

Additional observations from a re-analysis of the deposited data

Results flagged for a closer look

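Of 40 sets of 4 arrays (4 genes in 10 groups), 6 held an array far from the other 3. Its gap to the nearest array divided by the range of the group was above 0.829, where chance gives about 1 in 20 for normal values. The 40 sets are not independent, since the genes share arrays and 3 of the 6 flags fall on 1 array. Their count was not tested against chance. Pth was at -7.77 in replicate 2 of the 50 kBq adult group at 9 months and at -4.60 in replicate 1 of the 50 kBq young group at 6 months. In replicate 3 of the 500 kBq group 3 genes were low at once, with Casr at 1.24, Gcm2 at -5.88 and Gata3 at -6.10, while Pth in that rat was at 6.17. In the 50 kBq young group at 6 months, Gata3 was high in replicate 4, at -4.12. The young effect of 50 kBq on Casr at 3 months minus the adult effect was -5.63, with every young array below the mean of its controls and every adult array above that of its own. The mean of the adult rats' controls included the array with low Tg, at -6.03, and the other 2 controls, at 4.98 and 3.33, lay above all 4 adult arrays. The interaction did not pass the test (limma adjusted p = 0.109), and without the 3 arrays that stand apart the value was -0.78.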

How the results depend on the processing

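No member was called in any of the 14 comparisons under quantile normalization, normexp, no filter, the stricter filter, slide, scan date or replicate block or an adjusted p under 0.05. None was called in the 13 comparisons refitted without the 3 arrays that stand apart (the activity slope holds none of them), the 9 comparisons with each pair of groups alone, or the 4 with the 19 arrays of the 9 month comparison alone. Without the 3 arrays, 2261 of 25156 probes were called for 50 kBq adult rats at 9 months. In that refit 2915 were called for the control age slope, 567 for young minus adult at 9 months and at most 9 in any other comparison. Array weights called 3 members for 50 kBq young rats at 6 months, 3 for 50 kBq adult rats at 3 months and 2 for young minus adult at 6 months, and 0 in the others, and the cause was not tested. The share of all probes called with array weights was not counted. Newly called with unchanged direction were Gcm2 (-7.71) and Gata3 (-5.80) at 6 months in young rats, Gata3 (-3.84) at 3 months in adult rats, and Gcm2 (-7.04) and Gata3 (-5.59) in young minus adult at 6 months. No array left out gave a call, and the smallest adjusted p was 0.0233, for Casr in 50 kBq young rats at 3 months without replicate 4. Replicate numbers did not pair the rats. Same-numbered arrays of different groups had a median correlation of -0.03 in their deviations from the group means, and 7 of 49 arrays correlated best with their own number. With the replicate block, Gcm2 in 50 kBq young rats at 3 months differed by -4.26 (limma adjusted p = 0.115), and the block changed no call. With slide as a block the direction changed for Pth to -0.51 (0.5 kBq young 9 months), -0.36 (5 kBq young 9 months), -2.63 (500 kBq young 9 months), -2.07 (50 kBq adult 6 months), 1.23 (young minus adult 6 months) and 0.17 (activity slope), and for Casr to -1.35 (500 kBq young 9 months), -0.047 (50 kBq young 6 months), 0.44 (50 kBq adult 9 months) and -1.74 (young minus adult 9 months), and for Gcm2 to -0.19 (50 kBq adult 3 months) and 0.12 (50 kBq adult 9 months). With scan date as a block the direction changed for Pth to -0.26 (5 kBq young 9 months), 0.30 (50 kBq young 9 months), -0.91 (500 kBq young 9 months), 0.37 (50 kBq young 6 months) and 0.23 (young minus adult 6 months), and for Casr to 0.20 (50 kBq young 9 months) and -0.55 (500 kBq young 9 months), and for Gcm2 to -0.012 (50 kBq adult 3 months), and for Gata3 to 0.10 (50 kBq adult 6 months). Under quantile normalization the direction changed for Pth to 0.043 (50 kBq young 9 months), and for Casr to 0.065 (50 kBq young 9 months) and -0.14 (50 kBq young 6 months). Under normexp the direction changed for Gata3 to -0.21 (5 kBq young 9 months) and 0.43 (young minus adult 3 months), and for Casr to -0.41 (50 kBq young 6 months), and for Gcm2 to -0.71 (50 kBq adult 3 months). With array weights the direction changed for Pth to -0.048 (5 kBq young 9 months), -0.15 (50 kBq adult 3 months) and 0.0042 (activity slope), and for Casr to 0.086 (50 kBq young 9 months), -3.86 (50 kBq young 6 months), -2.44 (50 kBq adult 3 months), 0.21 (young minus adult 3 months) and -2.52 (young minus adult 6 months), and for Gcm2 to -3.81 (50 kBq adult 3 months) and -0.47 (control age slope), and for Gata3 to -0.0084 (control age slope). Without the 3 arrays that stand apart the direction changed for Casr to -3.28 (50 kBq young 6 months), -1.85 (50 kBq adult 3 months) and -2.19 (young minus adult 6 months), and for Pth to -0.29 (50 kBq adult 3 months), and for Gcm2 to -2.45 (50 kBq adult 3 months). With single arrays left out, values crossed 0 for 25 of 56 differences. For Pth they ran from -3.19 to 2.56 (50 kBq young 6 months), -3.33 to 2.42 (young minus adult 6 months), -0.42 to 0.20 (50 kBq young 9 months), -0.31 to 0.26 (5 kBq young 9 months), -0.30 to 0.27 (500 kBq young 9 months), -0.25 to 0.33 (50 kBq adult 6 months), -0.29 to 4.45 (50 kBq adult 3 months) and -0.16 to 0.42 (0.5 kBq young 9 months). For Casr they ran from -3.28 to 2.23 (50 kBq young 6 months), -0.71 to 0.92 (50 kBq young 9 months), -0.75 to 0.049 (5 kBq young 9 months), -0.32 to 1.00 (500 kBq young 9 months), -1.85 to 3.66 (50 kBq adult 3 months) and -2.19 to 3.31 (young minus adult 6 months). For Gata3 they ran from -0.33 to 1.18 (0.5 kBq young 9 months), -0.44 to 1.07 (5 kBq young 9 months), -2.36 to 1.68 (50 kBq adult 3 months), -1.10 to 0.50 (50 kBq adult 6 months), -2.20 to 0.015 (50 kBq adult 9 months), -3.83 to 0.21 (50 kBq young 6 months) and -3.70 to 0.35 (young minus adult 6 months). For Gcm2 they ran from -2.45 to 2.66 (50 kBq adult 3 months), -1.71 to 0.31 (50 kBq adult 6 months), -1.97 to 0.58 (50 kBq adult 9 months) and -0.17 to 1.85 (0.5 kBq young 9 months). The range of Pth over the 49 arrays narrowed to 12.2 under normexp. Averaging the probes of a gene changes no member, since each has 1 probe. Signals near background limit Gcm2 and Gata3, which were not well above background on 7 and 5 arrays, and these values have no order among themselves.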
